A study of Arabidopsis thaliana with 12 samples.

Results

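The genotype by light interaction at 60 min asks, gene by gene, whether the change in transcript level after 60 min of light was larger or smaller in the Arabidopsis thaliana mutant flu/ex1/ydl1 than in flu/ex1. It uses 8 of the 12 RNA sequencing libraries of the study, namely those whose file names give 0 or 60 min of light, and is the change from 0 to 60 min in flu/ex1/ydl1 minus the same change in flu/ex1. Plants of both genotypes were 6 d old, had grown in soil under continuous light, were kept for 4 h in darkness and were then sampled, or were first returned to light. Both genotypes carry the flu and the ex1 mutation, and they differ in ydl1, so that no library comes from a wild type, from flu alone or from ydl1 alone. The labels do not say how many plants made a library, whether replicates came from separate plants, or how many ydl1 lines were used, so p-values measure only the spread between these samples.

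The light times in the labels and in the file names differ for 8 of the 12 libraries, and the file names were followed. Each of the groups then held 2 libraries, flu/ex1 or flu/ex1/ydl1 at 0, 30 or 60 min. The 4 libraries at 30 min are all labelled 0 or 60 min, and they enter the interaction only through the shared fit of all 12. In each of the 4 groups of the interaction 1 library has the same time in its label and in its file name and 1 has another time in its label. Values are given below as CPM, the number of counts per 1000000 counts, scaled between libraries, and of each pair of values at 0 or 60 min the library in which both times agree comes first. With the labelled times in place of those in the file names, 0 of 17879 genes passed the test of the interaction (edgeR and DESeq2 both gave 0), with 1065 at an unadjusted p under 0.05 in edgeR and 589 in DESeq2. The results below are those for the times in the file names. Single libraries are named by the replicate and time in their labels. In flu/ex1 the file names give 0 min for replicate 2 labelled 0 min and replicate 3 labelled 30 min. They give 60 min for replicate 2 labelled 30 min and replicate 3 labelled 60 min. In flu/ex1/ydl1 they give 0 min for replicate 1 labelled 0 min and replicate 3 labelled 30 min. They give 60 min for replicate 1 labelled 30 min and replicate 2 labelled 60 min.

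In flu mutants the plastid protein FLU, which holds back chlorophyll synthesis in the dark, does not function, and protochlorophyllide builds up in darkness. When such plants return to light, the free pigment passes light energy to oxygen and singlet oxygen forms in the chloroplast. EX1 (EXECUTER1) is a plastid protein needed for much of the nuclear gene response to this singlet oxygen, and flu plants that lack it show a weaker response. The genes of that response are stress transcription factors, calcium and MAP kinase signalling genes, and genes for jasmonate and salicylate.

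The libraries held from 7859611 to 11591060 counts, of which plastid loci took between 63.3% and 69.4%, so that 2469353 to 4209672 counts came from nuclear loci. Of the libraries, replicate 2 of flu/ex1 labelled 0 min held 0.828% nuclear ribosomal RNA counts, and the others of the 8 held between 0.00406% and 0.0446%. Whether this bears on the results was not tested. All 25 genes of the green tissue list had counts in every library, and the 9 root markers summed to between 30 and 106 counts and the 5 seed markers to between 3 and 11 counts per library. FLU, EX1 and EX2, the close relative of EX1, gave counts in all 8 libraries, and their light change did not pass the test of a difference between genotypes. The differences on the log2 scale were -0.57 ± 0.35 (SE) for FLU, 0.62 ± 0.53 for EX1 and -0.29 ± 0.37 for EX2, with adjusted p of 0.586, 0.754 and 0.849 in edgeR. The reference used here has no locus named YDL1, so the level of the mutated gene could not be read.

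More genes passed the test of the light change in flu/ex1/ydl1 than in flu/ex1, and where the changes differed they were almost always more positive in flu/ex1/ydl1. Of 17879 genes tested, 583 (3.26%) had a light change that differed between the genotypes by edgeR's quasi-likelihood test at an adjusted p under 0.05. The difference was higher in flu/ex1/ydl1 for 558 genes (3.12%) and lower for 25 genes (0.14%). In flu/ex1 alone 245 genes (1.37%) passed the test of the light change itself, 184 (1.03%) up and 61 (0.341%) down. In flu/ex1/ydl1 alone 2285 genes (12.8%) passed it, 1720 (9.62%) up and 565 (3.16%) down. The number of genes past the threshold in the interaction was 251 without replicate 3 of flu/ex1 labelled 60 min, 230 without replicate 3 of flu/ex1/ydl1 labelled 30 min, 345 without replicate 2 of flu/ex1 labelled 0 min, 367 without replicate 3 of flu/ex1 labelled 30 min and 373 without replicate 1 of flu/ex1/ydl1 labelled 0 min, each against 583 with all libraries. The count for light in flu/ex1 was 56, 87, 102 and 103 without each of the 4 flu/ex1 libraries at 0 and 60 min, and that in flu/ex1/ydl1 was 1512 without replicate 1 of flu/ex1/ydl1 labelled 0 min and 1427 without replicate 3 of flu/ex1/ydl1 labelled 30 min.

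Of 79 genes that are named by the rule or were chosen after their values were seen and that passed in the interaction, 28 also passed without each of the 12 libraries in turn. These were AP2C1, AT1G05575, AT2G32210, ATAF1, ATAF2, BIK1, CNI1, CPK28, CRK10, CRK11, FC1, FES1A, HEMA2, HSFA4A, LOX4, MPK3, NAC102, NDB2, NPR3, PEN2, PEN3, PFA-DSP3, PP2-B13, SAG21, TCH3, WRKY6, WRKY15 and WRKY18. The other 51 did not pass without at least 1 library. Of the 79 genes, 39 were lost without replicate 3 of flu/ex1/ydl1 labelled 30 min, 30 without replicate 3 of flu/ex1 labelled 60 min, 30 without replicate 2 of flu/ex1 labelled 0 min, 21 without replicate 3 of flu/ex1 labelled 30 min, 21 without replicate 1 of flu/ex1/ydl1 labelled 0 min and 19 without replicate 1 of flu/ex1/ydl1 labelled 30 min. All of these are libraries at 0 or 60 min by file name. Leaving out each of the other 6 libraries lost between 1 and 9. Among these genes MPK3, TCH3, HSP101, FC1, FES1A, ATAF1, ATAF2, NAC102, CPK28, SARD1, DREB2A, GSTF8, APR3, JAZ10, ARR9, KAT5, AT1G05575, AT3G01485 and AT4G28310 overlap another annotated locus, and their values can hold reads of it.

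The 558 higher genes were, for the most part, genes that light raised in flu/ex1/ydl1 and left near their dark level in flu/ex1. Their median light change was 2.72 on the log2 scale in flu/ex1/ydl1 and 0.09 in flu/ex1, and the median difference was 2.56 with an interquartile range from 1.98 to 3.30. Over all genes tested the median difference was -0.01, with 49.1% of the differences positive and 50.9% negative. The difference was at least 2 on the log2 scale in 414 of the genes, at least 3 in 192 and at least 4 in 72. Of the 558, 548 rose past the threshold in flu/ex1/ydl1, beside 9.62% of all genes tested. In 539 of these the change in flu/ex1 did not pass. Only 1.37% of all genes tested passed in flu/ex1, so not passing there does not set these genes apart. A further 8 rose past the threshold in both genotypes and by more in flu/ex1/ydl1, and 1 rose in flu/ex1/ydl1 and fell in flu/ex1. The remaining 10 did not pass in flu/ex1/ydl1, and 6 of them fell past the threshold in flu/ex1.

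**Figure D1:**
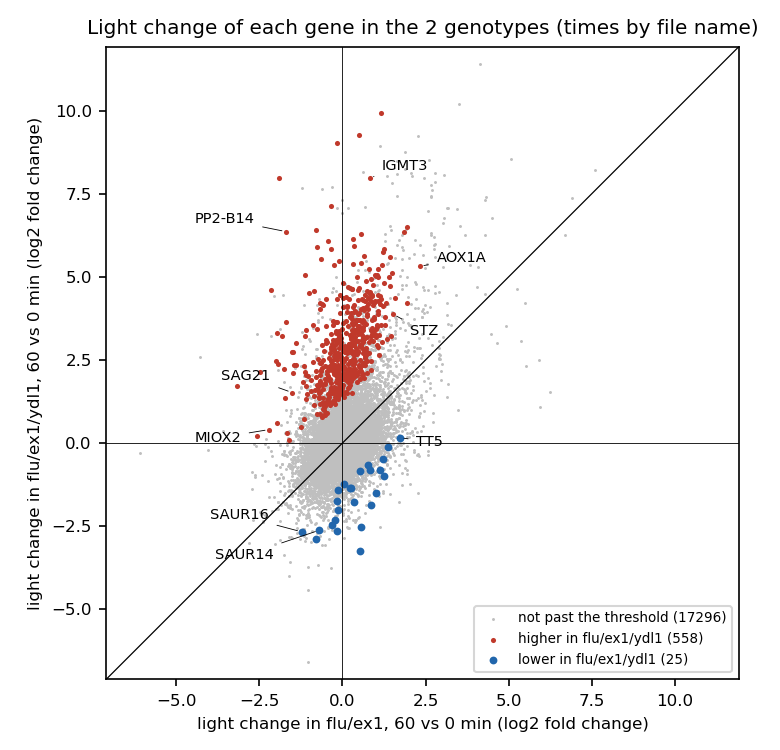
Light change from 0 to 60 min (log2 fold change) of each of 17879 genes in flu/ex1 (x axis) and in flu/ex1/ydl1 (y axis), 1 point per gene, with the diagonal of equal change. The 558 genes with a higher change in flu/ex1/ydl1 (red) lie above the diagonal and mostly near 0 on the x axis, and the 25 with a lower change (blue) lie below it.

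WRKY transcription factors, whose own genes are among the higher ones, bind the W-box, and the upstream sequences of 2 higher genes are shown, chosen because each holds a pair of them. The search looked for TTGACC and TTGACT on both strands in the 250 bases before each annotated start, and matches of the different motifs searched may overlap. At least 1 W-box lay in 252 of the 530 higher genes with a window (47.6%), in 7 of the 23 lower genes with a window (30.4%) and in 4662 of all 16621 tested genes with a window (28.1%). The rapid stress response element CGCGTT lay in 31 windows of the higher genes (5.85%) and in 477 of all windows (2.87%), while the G-box CACGTG lay in 7.74% of the former and 7.47% of the latter. The windows are from the build TAIR10.1 with RefSeq's annotation and read 5′ to 3′ on the strand of the gene, with the W-box in capitals. PP2-B14 is on the minus strand and its window is chr1:21063048-21063297. PFA-DSP3 is on the minus strand with the window chr3:607908-608157.
PP2-B14: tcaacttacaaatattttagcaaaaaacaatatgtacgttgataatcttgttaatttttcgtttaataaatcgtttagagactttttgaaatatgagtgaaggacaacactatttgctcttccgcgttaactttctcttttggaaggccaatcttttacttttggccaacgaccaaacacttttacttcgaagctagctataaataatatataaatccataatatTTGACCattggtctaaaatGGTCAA
PFA-DSP3: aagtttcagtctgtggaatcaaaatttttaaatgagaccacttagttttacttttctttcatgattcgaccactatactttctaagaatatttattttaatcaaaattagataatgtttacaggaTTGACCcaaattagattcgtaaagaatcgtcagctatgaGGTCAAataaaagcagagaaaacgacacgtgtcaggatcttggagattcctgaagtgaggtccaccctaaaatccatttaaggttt
Neither window overlaps an annotated gene. A match is a match of letters and says nothing of binding.

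The singlet oxygen marker genes, transcription factors and signalling genes known from flu plants, had the largest median difference of the 25 gene lists with at least 8 members tested. The lists were chosen with earlier results of these data known, so this rank is a description only. Of 20 tested, 16 were higher in the interaction, beside 3.12% of all genes tested, and 0 were lower, with a median difference of 3.65. All 20 rose past the threshold in flu/ex1/ydl1 and 1 of 20 in flu/ex1, beside 9.62% and 1.03% of all genes tested. The same shares of all genes stand beside the counts of each list below. The number of higher genes in the list was between 5 and 17 when each library in turn was left out, with the lowest value, 5, without replicate 3 of flu/ex1/ydl1 labelled 30 min and 7 without replicate 2 of flu/ex1 labelled 0 min. With the labelled times the median difference of the list was 1.66 and 0 genes passed. With the replicate numbers of the file names as a block it was 3.02 and 8 genes were higher.

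CNI1 encodes a RING ubiquitin ligase that acts in the response to carbon and nitrogen status and in defence. It stood at 1.80 and 1.67 CPM in flu/ex1 at 0 min and at 2.14 and 5.12 CPM at 60 min. In flu/ex1/ydl1 it stood at 3.11 and 2.48 CPM at 0 min and at 96.3 and 114 CPM at 60 min. Only the flu/ex1/ydl1 libraries at 60 min were high among these 8. CNI1 and the called genes named below were chosen by their values in these same 8 libraries. Gaps between their libraries therefore describe them and give no further support. The light change of CNI1 differed by 4.17 ± 0.55 (SE, log2 scale; edgeR adjusted p = 0.00121).

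PFA-DSP3, a plant and fungal atypical dual-specificity phosphatase, was at 1.66 and 0.787 CPM in flu/ex1 at 0 min and at 0.503 and 0.772 CPM at 60 min. In flu/ex1/ydl1 it went from 1.89 and 1.57 CPM to 18.7 and 22 CPM, a difference in light change of 4.43 ± 0.59 (edgeR adjusted p = 0.00121). MPK3, a MAP kinase of stress and defence signalling, stayed between 13.0 and 20.2 CPM in the 4 flu/ex1 libraries. It went from 24.7 and 13.5 CPM to 139 and 179 CPM in flu/ex1/ydl1, a difference of 3.26 ± 0.44 (edgeR adjusted p = 0.00121). For both genes the 2 flu/ex1/ydl1 libraries at 60 min were above the other libraries at 0 and 60 min. Both calls held without each library in turn.

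The other 13 higher markers were WRKY33, WRKY40 and WRKY46, the ERF factors ERF5, ERF6, ERF13 and ERF104, the zinc finger factors STZ, RHL41 and AZF2, the membrane-associated BAP1, the mitochondrial AAA-ATPase gene BCS1, and SIB1, a protein that binds a plastid sigma factor. Their mean levels in flu/ex1/ydl1 at 60 min ran from 10.5 CPM for AZF2 to 264 CPM for RHL41. The 4 members that did not pass were ERF105, OXI1, CML37 and BAP2, which had mean levels in flu/ex1/ydl1 at 60 min of 43.7, 39, 40.0 and 5.63 CPM and in flu/ex1 at 60 min of 1.74, 1.57, 0.807 and 0.235 CPM. The adjusted p of OXI1, a kinase induced by oxidative stress, was 0.398, and its mean dark level was 0.167 CPM in flu/ex1 and 0.133 CPM in flu/ex1/ydl1. STZ was the member that rose past the threshold in flu/ex1 too.

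**Figure D2:**
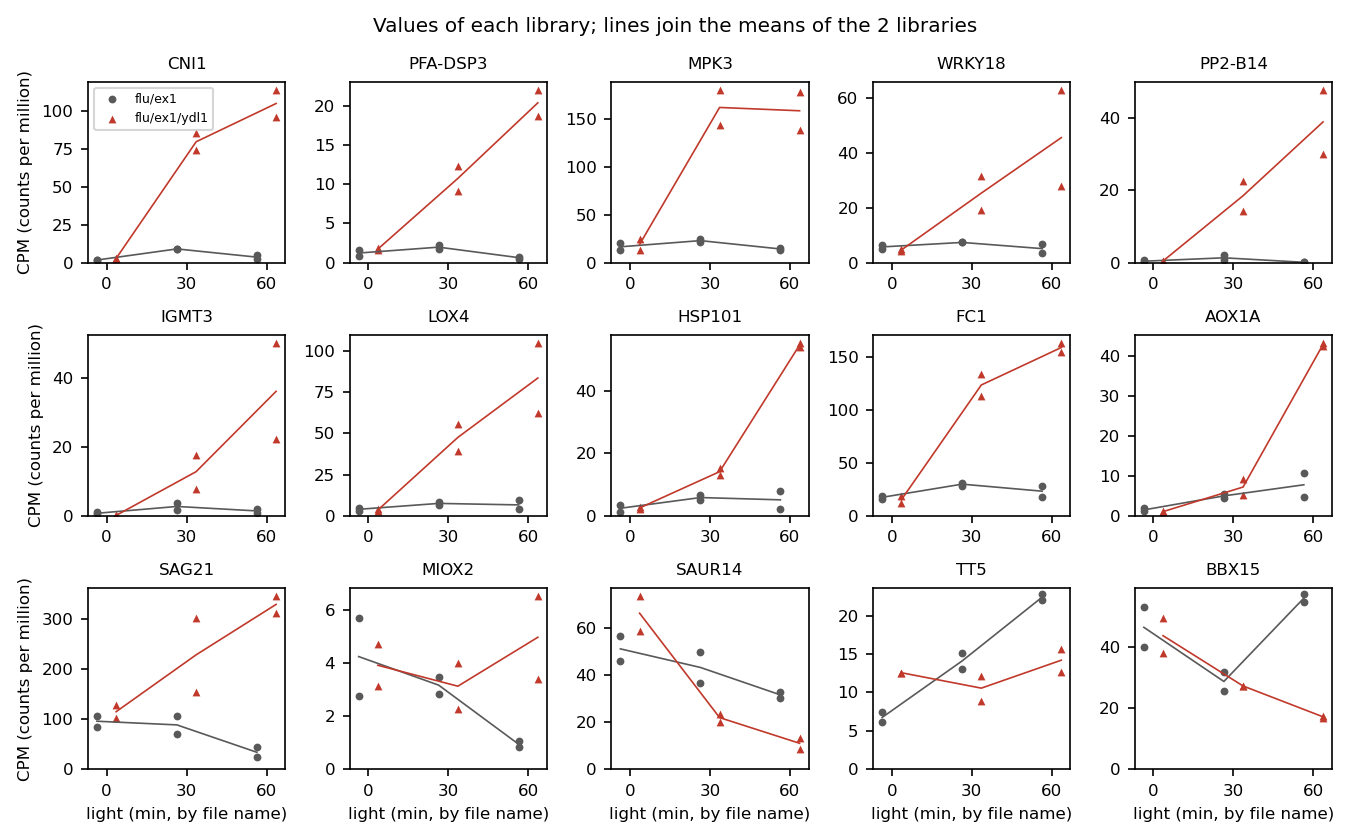
Level in CPM (y axis, from 0) of 15 genes in each library against the light time in the file name (x axis, 0, 30 and 60 min), for flu/ex1 (grey circles) and flu/ex1/ydl1 (red triangles), with lines through the means of the 2 libraries of each group. CNI1 and MPK3 were already high at 30 min in flu/ex1/ydl1, while HSP101 and AOX1A stood at 54.1 and 55.3 CPM and at 42.5 and 43.1 CPM at 60 min and far lower at 30 min.

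Further transcription factor genes stood higher. Of 12 other WRKY genes tested 7 were higher, with a list median of 2.49, and the count was 4 to 9 when each library in turn was left out, with 4 without replicate 3 of flu/ex1 labelled 60 min and without replicate 3 of flu/ex1/ydl1 labelled 30 min. WRKY18, WRKY6 and WRKY15 had differences of 3.50 ± 0.57, 2.78 ± 0.46 and 2.46 ± 0.45 (edgeR adjusted p = 0.00291, 0.0033 and 0.00484), and WRKY11, WRKY22, WRKY28 and WRKY53 were the others. WRKY18, a regulator of defence, was at 4.84 and 6.59 CPM in flu/ex1 at 0 min and 3.46 and 6.74 CPM at 60 min, against 4.87 and 4.31 CPM and then 28.0 and 62.9 CPM in flu/ex1/ydl1. The 2 libraries of flu/ex1/ydl1 at 60 min differed by more than 2-fold from each other and both lay above the other libraries at 0 and 60 min.

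Of 10 stress NAC genes tested 4 were higher, with a list median of 2.77. These were ATAF1, ATAF2, NAC102 and NAC032, and leaving out 1 library gave 4 to 6. NAC102 had the difference 3.62 ± 0.56 (edgeR adjusted p = 0.00224) and reached 85.5 and 174 CPM in flu/ex1/ydl1 at 60 min, against 7.93 and 15.4 CPM in flu/ex1. Of 14 other ERF and CBF genes tested 3 were higher (ERF11, ERF4 and DREB2A), and 11 rose in flu/ex1/ydl1. The count of 3 rested on single libraries. It was 0 without replicate 2 of flu/ex1 labelled 0 min, replicate 3 of flu/ex1 labelled 60 min or replicate 3 of flu/ex1/ydl1 labelled 30 min, and 5 and 7 without replicate 3 and replicate 2 of flu/ex1 labelled 30 min. The list median was 2.53, and 1.31 without replicate 2 of flu/ex1 labelled 0 min. DREB2A, a regulator of drought and heat genes, had a difference of 3.28 ± 0.83 (edgeR adjusted p = 0.0385), and without replicate 2 of flu/ex1 labelled 0 min it was 1.31 (edgeR adjusted p = 0.72). DREB2A did not pass without any 1 of 7 of the 12 libraries.

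Signalling genes of calcium and of MAP kinase cascades were also higher. Of 13 touch and calcium genes tested 6 were higher (TCH3, CPK28, CML38, CPK32, CML42 and ACA13) with a median of 2.51. The count was 3 without replicate 1 of flu/ex1/ydl1 labelled 0 min, replicate 3 of flu/ex1 labelled 60 min or replicate 3 of flu/ex1/ydl1 labelled 30 min, and up to 8 without another library. The light change of these 13 had a median of -0.04 in flu/ex1 and of 2.38 in flu/ex1/ydl1. TCH3, a calmodulin-like calcium sensor, was at 34.4 and 31.7 CPM and then 26.4 and 40.3 CPM in flu/ex1, and at 32.1 and 39.7 CPM and then 179 and 325 CPM in flu/ex1/ydl1, a difference of 2.80 ± 0.45 (edgeR adjusted p = 0.00291). CPK28, a calcium-dependent kinase that acts on BIK1, differed by 2.82 ± 0.49 (edgeR adjusted p = 0.004). Of 13 genes of the MAP kinase and NADPH oxidase list 6 were higher, with a median of 1.98, and 2 without replicate 3 of flu/ex1/ydl1 labelled 30 min. BIK1, a cytoplasmic kinase of immune signalling, RBOHD, the NADPH oxidase of the stress burst, and AP2C1, a phosphatase that inactivates MAP kinases, differed by 2.33 ± 0.40, 2.1 ± 0.39 and 2.62 ± 0.47 (edgeR adjusted p = 0.00383, 0.00595 and 0.00458). MPK11, MKK4 and MKK9 were the others, and MPK4 and MPK6 had differences of 0.09 and 0.12 that did not pass.

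Jasmonate genes were higher in part. Of 15 synthesis genes tested 5 were higher, namely LOX3, LOX4, AOC3, OPCL1 and ACX1, and 9 rose in flu/ex1/ydl1 against 1 in flu/ex1. The count of 5 went from 1 to 7 when each library in turn was left out. It was 1 without replicate 2 of flu/ex1 labelled 0 min, 2 without replicate 3 of flu/ex1/ydl1 labelled 30 min, and 3 without replicate 1 or 3 of flu/ex1 labelled 60 min, replicate 3 of flu/ex1 labelled 30 min or replicate 1 of flu/ex1/ydl1 labelled 0 min. LOX4, a lipoxygenase of the first step, was at 4.70 and 3.25 CPM and then 3.90 and 9.40 CPM in flu/ex1, and at 4.06 and 3 CPM and then 62.4 and 105 CPM in flu/ex1/ydl1. The light change of LOX4 differed by 3.81 ± 0.59 (edgeR adjusted p = 0.00223). LOX2, AOC4 and LOX6, other lipoxygenase and cyclase genes, had differences of -0.14, -0.07 and 0.16 that did not pass. Among 16 signalling genes 3 were higher, the repressor genes JAZ1, JAZ6 and JAZ10, with differences of 2.77 ± 0.60, 2.04 ± 0.42 and 3.46 ± 0.89 (edgeR adjusted p = 0.0154, 0.012 and 0.0402). These calls also rested on single libraries, and 0 to 4 genes of the list passed when each library in turn was left out. None passed without replicate 1 of flu/ex1/ydl1 labelled 0 min or replicate 3 of flu/ex1 labelled 60 min, and 1 did without replicate 2 of flu/ex1 labelled 0 min or replicate 3 of flu/ex1/ydl1 labelled 30 min. JAZ10 was lost without any 1 of 10 of the 12 libraries, JAZ1 without 4 and JAZ6 without 2. The median of that list was 0.95, with 0.47 without replicate 2 of flu/ex1 labelled 0 min and 1.61 without replicate 2 of flu/ex1 labelled 30 min, or 1.21 with the gene that had a group at 0 counts given 3 counts in that group instead.

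Of 14 salicylate and EDS1 genes tested 4 were higher, with a median of 1.63, and when each library in turn was left out the count was 1 to 6, with 1 without replicate 3 of flu/ex1/ydl1 labelled 30 min. CBP60G and SARD1, factors that drive salicylate synthesis, and NPR3, a salicylate receptor, differed by 2.80 ± 0.53, 2.21 ± 0.42 and 2.70 ± 0.48 (edgeR adjusted p = 0.00666, 0.00639 and 0.0043), and PAD4 was the fourth. PR1, PR5 and BGL2, which encode pathogenesis-related proteins, had differences of 0.35, -0.10 and -0.02 that did not pass. Of 11 indolic defence genes tested 4 were higher, and 10 rose in flu/ex1/ydl1. The 4 became 2 without any 1 of 6 of the libraries and 5 without any 1 of 3 others. The higher genes were the myrosinase gene PEN2 at 2.44 ± 0.37, the transporter gene PEN3 at 2.34 ± 0.38, the regulator MYB51 at 2.46 ± 0.60 (edgeR adjusted p = 0.00201, 0.00291 and 0.0293) and ASA1 of tryptophan synthesis. PEN3 stood at 116 and 96.0 CPM and then 92.2 and 94.9 CPM in flu/ex1, and 106 and 96.8 CPM and then 430 and 473 CPM in flu/ex1/ydl1.

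Of 18 heat shock genes tested 6 were higher, 17 rose in flu/ex1/ydl1 and 1 rose in flu/ex1, with a median difference of 2.68. The count of 6 was 2 to 11 when each library in turn was left out. It was 2 without replicate 2 of flu/ex1 labelled 0 min, where the median was 1.51, or without replicate 3 of flu/ex1/ydl1 labelled 30 min, and 3 without replicate 3 of flu/ex1 labelled 60 min. Without replicate 2 and replicate 3 of flu/ex1 labelled 30 min it was 11 and 10. FES1A, a partner of cytosolic HSP70, differed by 2.90 ± 0.43 and HSFA4A, a heat shock factor, by 3.10 ± 0.56 (edgeR adjusted p = 0.00192 and 0.00492). HSP101, the disaggregating chaperone, was at 3.59 and 1.28 CPM and then 2.26 and 8 CPM in flu/ex1, and at 2.84 and 2.22 CPM and then 54.1 and 55.3 CPM in flu/ex1/ydl1, a difference of 3.30 ± 0.71 (edgeR adjusted p = 0.0148). Without replicate 2 of flu/ex1 labelled 0 min the value of HSP101 was 2.44 (edgeR adjusted p = 0.197), and without replicate 3 of flu/ex1/ydl1 labelled 30 min it was 3.13 (edgeR adjusted p = 0.0872). BAG6, HSP70 and HSFB1 were the other higher members.

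In the chloroplast pathway that makes chlorophyll and heme the members did not move together. Of 29 tetrapyrrole genes tested 2 were higher and 0 lower, and the median difference was -0.29. In this list 6 of 29 differences were positive, beside 49.1% of all genes tested. The 2 higher genes were HEMA2, the glutamyl-tRNA reductase form that is not the main light-induced one, and FC1, the ferrochelatase that makes heme from protoporphyrin. FC1 (AT5G26030) was at 19.1 and 15.8 CPM and then 18.1 and 28.3 CPM in flu/ex1, and at 18.3 and 12 CPM and then 154 and 163 CPM in flu/ex1/ydl1. Its light change differed by 2.97 ± 0.40 (edgeR adjusted p = 0.00121). HEMA2 went from 4.73 and 2.61 CPM to 26 and 24.4 CPM in flu/ex1/ydl1 and stayed between 3.52 and 4.97 CPM in flu/ex1, a difference of 3.01 ± 0.50 (edgeR adjusted p = 0.00339). The related genes HEMA1 and FC2, which serve most chlorophyll and heme synthesis in green tissue, had differences of 0.24 and -0.76 that did not pass.

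Of 16 antioxidant and alternative respiration genes tested 2 were higher, AOX1A and NDB2. AOX1A encodes the alternative oxidase of mitochondria and NDB2 an external NADH dehydrogenase that can feed it. AOX1A rose in both genotypes, from 1.11 and 1.87 CPM to 4.72 and 10.8 CPM in flu/ex1 and from 0.947 and 1.18 CPM to 42.5 and 43.1 CPM in flu/ex1/ydl1. The light changes of AOX1A were 2.33 ± 0.42 and 5.32 ± 0.45 and their difference 2.99 ± 0.66 (edgeR adjusted p = 0.0167). The difference of AOX1A did not pass without replicate 3 of flu/ex1 labelled 30 min (2.52, edgeR adjusted p = 0.21), without replicate 1 of flu/ex1/ydl1 labelled 0 min (2.86, edgeR adjusted p = 0.075) or without replicate 3 of flu/ex1/ydl1 labelled 30 min (3.15, edgeR adjusted p = 0.0746). The catalase genes CAT1, CAT2 and CAT3, the dismutase genes CSD1, CSD2 and FSD1, and the ferritin genes FER1, FER3 and FER4 had differences between -0.60 and 0.39, none past the threshold.

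The other 7 genes that rose past the threshold in both genotypes and by more in flu/ex1/ydl1 were STZ, RLK, NCED3, CRK10, Hsp70-2, AT5G19240 and AT5G61820. NCED3, the dioxygenase of abscisic acid synthesis, went from 1.11 and 1.48 CPM to 4.97 and 5.19 CPM in flu/ex1 and from 1.22 and 1.18 CPM to 24.8 and 20.5 CPM in flu/ex1/ydl1, a difference of 2.28 ± 0.50 (edgeR adjusted p = 0.0155). CYP707A3, an enzyme that breaks abscisic acid down, was the other higher gene of 19 in the abscisic acid list, at 2.42 ± 0.53 (edgeR adjusted p = 0.0155), and 0 genes of that list passed without replicate 3 of flu/ex1 labelled 60 min or replicate 3 of flu/ex1/ydl1 labelled 30 min. The cysteine-rich receptor-like kinase genes CRK10 and CRK11 differed by 2.28 ± 0.40 and 3.84 ± 0.51 (edgeR adjusted p = 0.00391 and 0.00121). CRK10 and CRK11 overlap on opposite strands in the reference, and the strand setting of the counting is not given in the sources used here, so their values cannot be fully told apart.

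Among the 12 higher genes with the largest differences at a mean of at least 5 CPM were the neighbours PP2-B13 and PP2-B14, which encode F-box proteins of the phloem protein 2 type, and IGMT3, an indole glucosinolate methyltransferase gene. PP2-B14 was at 0.691 and 0.0983 CPM and then 0.126 and 0.0702 CPM in flu/ex1, and at 0.406 and 0.522 CPM and then 30.2 and 47.8 CPM in flu/ex1/ydl1. At 60 min that was 798 counts in flu/ex1/ydl1 against 3 in flu/ex1, a ratio of 427 (95% exact interval 146 to 2076, counting error only). The fitted difference of PP2-B14 was 8.06 ± 1.43 (edgeR adjusted p = 0.00424), and without replicate 2 of flu/ex1 labelled 0 min it was 6.34 (edgeR adjusted p = 0.368). PP2-B13 differed by 6.19 ± 1.10 (edgeR adjusted p = 0.00429). The non-coding RNA locus AT1G56242, at 6.52 ± 1.30 (edgeR adjusted p = 0.00939), overlaps PP2-B13 on the other strand, and reads of the locus and of PP2-B13 cannot be told apart here.

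IGMT3 had 2 counts in flu/ex1/ydl1 at 0 min and 781 at 60 min, a ratio of 313 (95% exact interval 86.4 to 2590, counting error only), and 42 counts in flu/ex1 at 60 min. The fitted difference of IGMT3 was 7.15 ± 1.30 (edgeR adjusted p = 0.0049), and without replicate 3 of flu/ex1 labelled 30 min it was 6.24 (edgeR adjusted p = 0.202). How the counting treated reads shared with close relatives such as IGMT2 is not given in the sources used here, so the values of IGMT3, PP2-B13 and PP2-B14 are uncertain to that extent. The other 8 genes of the 12 differed by between 4.52 and 5.82. They were AT1G05575, AT1G07135, which is annotated as a glycine-rich protein, AT4G01870, annotated as a tolB-like protein, the TIR-NBS-LRR gene AT4G14370, the lectin receptor kinase gene B120, and AT1G56060, AT2G32200 and AT2G32210, annotated as small cysteine-rich proteins with a transmembrane domain. AT1G05575 reached 76.4 and 93.5 CPM in flu/ex1/ydl1 at 60 min against 0.377 and 2.03 CPM in flu/ex1.

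**Figure D3:**
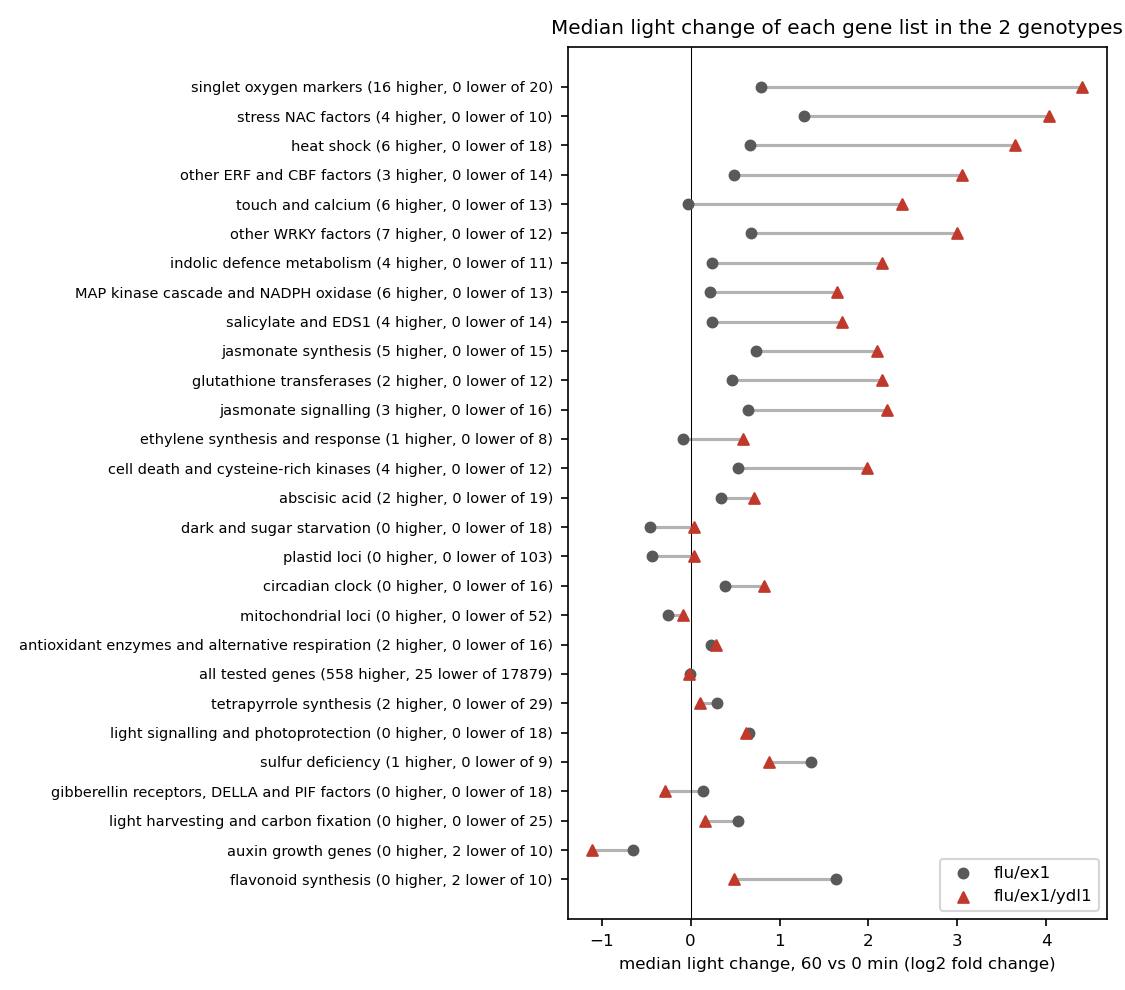
Median light change from 0 to 60 min (x axis, log2 fold change) of each gene list (y axis, with the numbers of higher, lower and tested genes) in flu/ex1 (grey circles) and flu/ex1/ydl1 (red triangles), joined by a line. For the singlet oxygen markers the medians were 0.79 and 4.41, for the touch and calcium genes -0.04 and 2.38, and for flavonoid synthesis 1.64 and 0.48.

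A few of the higher genes fell with light in flu/ex1. SAG21, a mitochondrial late embryogenesis protein linked to oxidative stress, moved in opposite directions and was chosen after its values were seen. It was at 106 and 84.7 CPM in flu/ex1 at 0 min and at 23.5 and 43.4 CPM at 60 min, and at 128 and 101 CPM and then 345 and 312 CPM in flu/ex1/ydl1. It fell by 1.51 ± 0.35 in flu/ex1 and rose by 1.52 ± 0.35 in flu/ex1/ydl1 (edgeR adjusted p = 0.0437 and 0.00648), and the difference was 3.03 ± 0.50 (edgeR adjusted p = 0.00301). The difference of SAG21 passed without each library in turn, with the highest adjusted p at 0.0327 in edgeR.

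The 6 genes that fell in flu/ex1 and did not pass in flu/ex1/ydl1, all named after their values were seen, were MIOX2, AGP16, AT1G15125, AT1G72416, AT2G01300 and AT4G31510. MIOX2, a myo-inositol oxygenase, fell by 2.2 ± 0.45 in flu/ex1, from 2.76 and 5.70 CPM to 0.818 and 1.05 CPM. In flu/ex1/ydl1 MIOX2 was at 3.11 and 4.70 CPM and then 3.39 and 6.53 CPM, and the difference was 2.61 ± 0.61 (edgeR adjusted p = 0.0242). AGP16, an arabinogalactan peptide gene, was at 58.3 and 34.3 CPM and then 12.1 and 17.1 CPM in flu/ex1, and stayed between 52.0 and 75.6 CPM in flu/ex1/ydl1, a difference of 1.95 ± 0.45 (edgeR adjusted p = 0.0216). For both genes all 4 flu/ex1/ydl1 libraries at 0 and 60 min were above both flu/ex1 libraries at 60 min, which only describes genes chosen by these values. The call of MIOX2 was lost without 5 of the 12 libraries and that of AGP16 without 3 (edgeR adjusted p up to 0.187 and 0.138). In the list of 18 dark and sugar starvation genes, 0 passed in the interaction by edgeR, and the median difference was 0.40, with ASN1 nearest at 3.25 ± 0.88 (edgeR adjusted p = 0.0558). Without replicate 2 of flu/ex1/ydl1 labelled 60 min 3 of them were higher.

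The 25 lower genes had a median difference of -1.91 on the log2 scale, with a median light change of -1.52 in flu/ex1/ydl1 and 0.35 in flu/ex1. Of these genes 18 fell past the threshold in flu/ex1/ydl1, beside 3.16% of all genes tested, and 1 of the 18 fell in flu/ex1 too. Another 4 rose in flu/ex1, beside 1.03% of all genes tested, and did not pass in flu/ex1/ydl1, and 3 passed in neither. The differences of the 25 lower genes were smaller than those of most higher genes. None of the lower genes named below held its call without each library in turn.

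SAUR14 and SAUR16, small auxin up RNA genes of cell expansion, were the 2 lower genes among 10 auxin growth genes tested, whose median was -1.09. That median was 0.13 without replicate 2 of flu/ex1 labelled 30 min and lay between -1.09 and -0.34 without each of the other libraries, and the number of lower genes was 0 to 2. SAUR14 was at 56.2 and 45.7 CPM and then 32.8 and 30.2 CPM in flu/ex1, and at 73.6 and 58.6 CPM and then 13.4 and 8.50 CPM in flu/ex1/ydl1. Its difference was -1.93 ± 0.39 (edgeR adjusted p = 0.00979). SAUR16 fell in both genotypes, by 1.23 ± 0.24 in flu/ex1 and by 2.67 ± 0.26 in flu/ex1/ydl1, a difference of -1.44 ± 0.35 (edgeR adjusted p = 0.0287). SAUR24, SAUR20 and SAUR21 had differences of -2.35, -1.59 and -1.09 that did not pass, and SAUR9 and SAUR15 had 0.35 and 0.66.

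The flavonoid synthesis list had a median difference of -1.20, and -0.83 with the replicate numbers as a block. Of its 10 tested genes 2 were lower, 0 were higher, and all 10 differences were negative, beside 50.9% of all genes tested. In flu/ex1 7 of the 10 genes rose past the threshold, and in flu/ex1/ydl1 2 did, beside 1.03% and 9.62% of all genes tested. TT5, the chalcone isomerase, was at 6.08 and 7.38 CPM and then 22.8 and 22 CPM in flu/ex1, and at 12.6 and 12.5 CPM and then 15.7 and 12.7 CPM in flu/ex1/ydl1. At 0 min TT5 was higher in both flu/ex1/ydl1 libraries than in both of flu/ex1, and at 60 min it was lower in both. Its difference was -1.56 ± 0.35 (edgeR adjusted p = 0.0199). LDOX, the anthocyanidin synthase, had the difference -1.69 ± 0.40 (edgeR adjusted p = 0.0245), with 21.4 and 23.5 CPM in flu/ex1 and 6.24 and 10.1 CPM in flu/ex1/ydl1 at 60 min. FLS1, TT4, F3H and DFR, further enzymes of the pathway, had differences of -1.36, -1.12, -0.94 and -1.28 that did not pass. The calls of TT5 and LDOX were lost without 5 and without 6 of the 12 libraries, at values of -1.57 to -1.41 and of -1.78 to -1.38.

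Other lower genes were regulators. BBX15, a B-box factor gene, was at 40.1 and 53.2 CPM and then 57.6 and 54.9 CPM in flu/ex1, and at 38.1 and 49.6 CPM and then 16.8 and 17.62 CPM in flu/ex1/ydl1, a difference of -1.62 ± 0.35 (edgeR adjusted p = 0.0148). ARR9, a negative regulator of cytokinin signalling, and ATH1, a homeobox factor, had differences of -1.57 ± 0.34 and -1.58 ± 0.38 (edgeR adjusted p = 0.0144 and 0.0285). The AP2 factor gene AT5G61590, known as DEWAX for its control of wax synthesis, and the Kelch F-box gene AT1G23390 had differences of -2.1 ± 0.54 and -1.91 ± 0.40 (edgeR adjusted p = 0.0396 and 0.0138). KAT5, a thiolase of fatty acid oxidation, and AT5G62140 rose in flu/ex1, by 1.38 ± 0.27 and 1.12 ± 0.27, with changes of -0.10 ± 0.27 and -0.81 ± 0.29 in flu/ex1/ydl1 that did not pass. AT4G28310, annotated as a microtubule-associated protein, and the non-coding RNA locus AT3G01485 complete the 12 largest at a mean of at least 5 CPM, with -2.09 ± 0.44 and -1.65 ± 0.42 (edgeR adjusted p = 0.013 and 0.0394). The call of KAT5 was lost without 9 of the 12 libraries, and those of AT5G61590 and AT3G01485 without 7. Those of ATH1, ARR9, AT1G23390 and BBX15 were lost without 6, 5, 4 and 3, and those of AT5G62140 and AT4G28310 without 2.

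Several groups of light-regulated genes gave 0 calls in the interaction by edgeR, which does not show that their light changes were equal. The 25 genes of light harvesting and carbon fixation had a median difference of -0.43, with 23 of 25 negative, beside 50.9% of all genes tested. LHCB2.2 was at -0.91 ± 0.43 (edgeR adjusted p = 0.409). The summed counts of these genes ranged from 9731 to 15390 per 1000000 counts of all loci in flu/ex1 at 0 min and from 20050 to 25160 at 60 min, and from 12500 to 14820 and then 12940 to 17100 in flu/ex1/ydl1, and whether these levels bear on the other results was not tested. In such bulk samples fewer cells of a type and less RNA per cell cannot be told apart. In the light signalling list 6 of 18 genes rose in each genotype, and HY5, the bZIP factor of light growth, had the difference -0.57 ± 0.39 (edgeR adjusted p = 0.65). The ELIP1 and ELIP2 genes of photoprotection had -0.34 and -0.11, neither past the threshold. The 16 clock genes had a median of 0.36 and the 18 genes of gibberellin and PIF factors one of -0.38, of which 1 was lower without replicate 2 of flu/ex1/ydl1 labelled 60 min. The 103 plastid loci tested had a median of 0.38 and the 52 mitochondrial ones one of 0.23, with 0 past the threshold in either.

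The remaining lists gave few calls. ACS7, an enzyme of ethylene synthesis, was the 1 higher gene of 8 in its list, with 3.03 and 3.64 CPM in flu/ex1/ydl1 and 0.252 and 0 CPM in flu/ex1 at 60 min (edgeR adjusted p = 0.0224). The glutathione transferase genes GSTF7 and GSTF8 were the 2 higher of 12, at 2.68 ± 0.62 and 1.60 ± 0.35 (edgeR adjusted p = 0.0217 and 0.0153). In that list 11 of 12 differences were positive, beside 49.1% of all genes tested, with a median of 1.55. In flu/ex1/ydl1 9 genes rose and in flu/ex1 0 did, and leaving out 1 library gave 0 to 4 higher genes. The count was 0 without replicate 3 of flu/ex1 labelled 60 min or replicate 3 of flu/ex1/ydl1 labelled 30 min, and 4 with a median of 3.34 without replicate 2 of flu/ex1 labelled 30 min. APR3, a sulfate reduction enzyme, was the 1 higher of 9 sulfur deficiency genes, at 1.85 ± 0.48 (edgeR adjusted p = 0.0424), while the sulfur deficiency genes LSU2 and SDI1 rose in flu/ex1 and had differences of -2.02 ± 0.58 and -1.11 ± 0.61 that did not pass. Of 12 genes of cell death and cysteine-rich kinases 4 were higher, CRK10, CRK11, CRK41 and MC8, with 2 without replicate 3 of flu/ex1 labelled 30 min. MC8, a metacaspase of oxidative cell death, had 0 counts in flu/ex1/ydl1 at 0 min and 124 at 60 min, at least 33.1-fold higher if the 0 is taken as 3 counts in the group, and 12 counts in flu/ex1 at 60 min. The calls of ACS7, GSTF7 and APR3 were lost without at least 4 of the libraries, at values from 3.60 to 4.70, from 2.07 to 2.41 and from 1.35 to 2.05. GSTF8 was lost without 4 of them too, at 1.39 to 1.62 with adjusted p up to 0.105 in edgeR, and MC8 without replicate 3 of flu/ex1 labelled 30 min (edgeR adjusted p = 0.298).

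The 4 libraries at 30 min by file name took no part in the contrast of the interaction. They show the same genes at an earlier time only if the file names are right. Their labels give 0 or 60 min, so no library at 30 min has the same time in its label and in its file name. At 30 min 701 of 17879 genes (3.92%) differed between the genotypes by edgeR, with 637 above flu/ex1 (3.56%) and 64 below it (0.358%). Of the 558 higher genes of the interaction 363 (65.1%) were higher at 30 min and 0 were lower. Of the 25 lower genes 2, AT5G62140 and ATH1, were lower at 30 min and 0 were higher. The median genotype difference of the 558 genes was -0.05 at 0 min, 1.54 at 30 min and 2.47 at 60 min. The values at 0 and 60 min entered the choice of these genes, and the value at 30 min did not, although all groups shared 1 estimate of the spread. Without replicate 1 of flu/ex1 labelled 60 min the number past the threshold at 30 min was 121, without replicate 1 of flu/ex1/ydl1 labelled 60 min it was 173, and without replicate 3 of flu/ex1 labelled 0 min it was 314. All of these are 30 min libraries by file name.

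**Figure D4:**
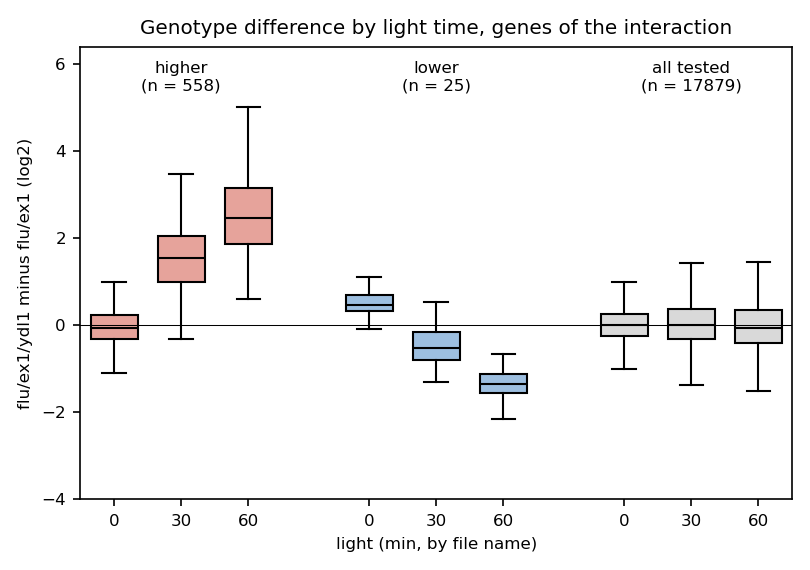
Level in flu/ex1/ydl1 minus level in flu/ex1 (y axis, log2) at 0, 30 and 60 min by file name (x axis) for the 558 higher genes, the 25 lower genes and all 17879 tested genes; boxes show the median and quartiles and whiskers reach to 1.5 times the interquartile range. The median of the higher genes was -0.05, 1.54 and 2.47, and that of the lower genes 0.47, -0.52 and -1.36.

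By the times in the file names, genes differed in how far they had moved by 30 min. CPK28 was at 52.8 and 77.9 CPM in flu/ex1/ydl1 at 30 min and at 43.2 and 66.6 CPM at 60 min, and MPK3 was at 144 and 181 CPM and then 139 and 179 CPM. These 2 genes had overlapping values at 30 and 60 min. JAZ6 stood at 8.15 and 11.6 CPM in flu/ex1/ydl1 at 30 min, against 9.65 and 8.31 CPM in flu/ex1, and at 35.9 and 51.4 CPM at 60 min. NDB2 was at 3.13 and 2.72 CPM and then 16.4 and 21.9 CPM, and the genotype difference of NDB2 at 30 min was -0.11 (edgeR adjusted p = 0.911). Of the lower genes, BBX15 had 27.2 and 27.5 CPM in flu/ex1/ydl1 and 25.8 and 31.9 CPM in flu/ex1 at 30 min, and the genotypes parted at 60 min.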

How the data were processed

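The libraries were Illumina TruSeq libraries of Trizol-extracted total RNA, per the labels' protocols. Each deposited file holds the raw read count of 36917 loci in 1 library. The authors' tools were Trimmomatic, FastQC, TopHat2 2.1.1 and featureCounts with the build TAIR10, per the submitters' processing notes. Which annotation was counted, with what strand setting, and how multi-mapping reads were handled is not given in the sources used here.

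Light times were read from the file names, and labelled times were an alternative. Genes were kept with filterByExpr of edgeR (at least 10 counts, and at least 15 in total), leaving 17879, and libraries were scaled by TMM. All 12 libraries were fitted in 6 groups with edgeR 4.0.16 (R 4.3.3) and its quasi-likelihood test, adjusted by Benjamini-Hochberg over all genes with a threshold of 0.05. Standard errors were derived from each log2 difference and its F value, and CPM from the counts and TMM factors. DESeq2 1.42.0 was an alternative. The fit was tested on data simulated with the spread of these libraries. With a change in flu/ex1/ydl1 at 60 min only, 7 of 100 genes changed 2-fold and 75 of 100 changed 4-fold were called. The changed genes had a mean of at least 5 CPM, and the groups had equal means otherwise. Of 17679 unchanged genes 5 were called, and 17601 genes, changed or unchanged, passed the filter. These rates do not cover genes near 0 counts in the dark or light changes in both genotypes. A gene that did not pass is therefore not shown to be without a difference. Ratios with few counts have exact binomial intervals, and a group of 0 counts was given a floor of 3 counts, which cover counting error only.

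Names come from a RefSeq reference of TAIR10.1, which holds 36632 of the loci. Genes were named by a rule: the 12 largest differences in each direction among called genes averaging at least 5 CPM, the 3 lowest p of each list, and FLU, EX1 and EX2. Other genes were named after their values were seen. The comparison, its members and the 27 gene lists were chosen with earlier results of these data known. Of the list genes 2 were dropped because the reference gives them no name.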

Additional observations from a re-analysis of the deposited data

Results flagged for a closer look

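The light change from 0 to 60 min differed between flu/ex1 and flu/ex1/ydl1 in 583 genes by edgeR's test of the difference itself, 558 of them with a higher change in flu/ex1/ydl1. SAG21 fell in flu/ex1 and rose in flu/ex1/ydl1, with a tested difference of 3.03 on the log2 scale (edgeR adjusted p = 0.00301). It was lower at 60 than at 0 min in both flu/ex1 libraries and higher in both flu/ex1/ydl1 libraries.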

How the results depend on the processing

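The 583 genes of the interaction became 586 with DESeq2's size factors, 608 with DESeq2, 591 with nuclear loci only, 595 with the file-name series as a block and 485 with the 4 groups of the interaction alone, and 885 without the filter on low counts. Without the filter the light change in flu/ex1 gave 701 genes in place of 245. With the labelled times the interaction, both light changes and the genotype difference at 30 min each gave 0 genes in edgeR, with and without a replicate block, and DESeq2, added after the data were seen, gave 0, 6, 0 and 2. At an unadjusted p under 0.05 edgeR gave 1065, 1358, 763 and 1210 genes with the labelled times. Each labelled group at 0 and 60 min then holds 1 library whose file name says 30 min.

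Leaving out 1 library gave 230 to 717 genes in the interaction, 56 to 363 for light in flu/ex1, 1427 to 2421 for light in flu/ex1/ydl1 and 121 to 811 at 30 min. Whether the numbers in the file names pair the libraries could not be decided. With 2 libraries per group, deviations from a group mean mirror each other, so correlations between them are not independent. Of 19 same-numbered pairs 8 correlated above 0.1 (range -0.24 to 0.28). Of 12 pairs of the same file-name series 8 did (range -0.21 to 0.24). With the file-name numbers as a replicate block the interaction gave 334 genes, of which 307 were among the 583, and the other 3 comparisons stayed within 1.5 times. Of the 79 named genes that had passed, 30 did not pass with this block. The singlet oxygen markers then had 8 higher genes in place of 16, and the heat shock list 2 in place of 6. The other ERF and CBF, abscisic acid, ethylene and glutathione transferase lists had 0 higher genes, and the auxin list 0 lower genes. The sulfur deficiency list had 0 higher genes and 1 lower gene. The stress NAC, tetrapyrrole and antioxidant lists kept their counts. With labelled times and a replicate block NCED3, SAUR16, CRK10 and AT4G28310 turned direction, to -0.25, 0.20, -0.082 and 0.22, and the cause was not tested. The 4 libraries whose times agree leave 1 per group, so they gave differences and no test. With 2 libraries per group and 2469353 to 4209672 nuclear counts per library, genes near 0 counts in the dark, such as OXI1, were fitted with wide errors.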

Other observations

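Some families of transport and secretion genes, none of them in the lists, were counted by their symbols after their values were seen, so the counts are a description. Of 8 purine permease genes (PUP) tested 3 were higher in the interaction, beside 3.12% of all genes. They were PUP7, PUP14 and PUP18, with differences on the log2 scale of 3.58 ± 0.63, 3.56 ± 0.55 and 3.22 ± 0.76. Of 14 genes for the EXO70 subunit of the exocyst, which tethers secretory vesicles, 4 were higher, EXO70B1, EXO70B2, EXO70H4 and EXO70H7. Of 15 cyclic nucleotide-gated channel genes 3 were higher, CNGC8, CNGC11 and CNGC13, and of 9 MLO genes 2 were, MLO2 and MLO12. With labelled times 0 genes passed in the interaction.

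A few genes, chosen after their values were seen, stood far lower in flu/ex1/ydl1 than in flu/ex1 and did not pass in the interaction. AT3G63052 stood at 581 and 349 CPM in flu/ex1 at 0 min and at 1.89 and 8.88 CPM in flu/ex1/ydl1, and at 164 and 273 CPM against 8.56 and 1.52 CPM at 60 min. GID1B, a gibberellin receptor gene, was between 2.07 and 4.53 CPM in the 4 flu/ex1 libraries at 0 and 60 min and between 0 and 0.178 CPM in those of flu/ex1/ydl1. MRD1 was between 4.33 and 8.29 CPM in the former and between 0 and 0.392 CPM in the latter. The interaction differences of these 3 genes were 0.83 ± 0.87, -1.12 ± 1.97 and -0.77 ± 1.5 on the log2 scale (edgeR adjusted p = 0.807, 0.898 and 0.908), and errors this wide do not show that the light changes were equal.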
